A study of Mus musculus with 2 samples.

Results

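The genes of the vacuolar-type proton ATPase (V-ATPase) and of the Rag GTPases were described in RNA sequencing data from mouse sciatic nerve. Members were all symbols starting with Atp6v or Atp6ap, together with Rraga, Rragb, Rragc, Rragd, Flcn, Fnip1 and Fnip2. This rule took 33 of the 22096 symbols in the deposited tables. They comprised 9 genes of the membrane sector V0, 13 of the cytosolic sector V1, 3 accessory genes, 7 genes of the Rag group and 1 pseudogene, Atp6v0c-ps2. The study set 1 library from Tsc1cKO nerve beside 1 library from control nerve, both taken at postnatal day 7 from mice of mixed strain, to see how the nerve transcriptome differs when the growth suppressor Tsc1 is lost. Going by the names given to the deposited tables, Tsc1cKO mice carried Dhhcre and 2 conditional Tsc1 copies, and control mice carried Dhhcre and 1 conditional copy, the other being unaltered. Read this way, both groups had Cre under the Dhh promoter, which is active in the Schwann cell lineage, and the control nerve would itself have 1 deleted Tsc1 copy in those cells. The labels call the second group only control, and the number of animals behind each library is not given in the sources used here.

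The V-ATPase is a rotary pump that moves protons into lysosomes, endosomes and secretory vesicles at the cost of ATP. Its V1 sector holds the subunits that split ATP and the stalks that carry the rotation, and its V0 sector holds the proteolipid ring and the subunit a through which protons cross the membrane. On the lysosome the pump binds the Ragulator complex, which anchors heterodimers of RagA or RagB with RagC or RagD. When amino acids are plentiful these heterodimers bring the kinase complex mTORC1 to the lysosomal surface, where Rheb, the GTPase held in check by the TSC complex, switches it on. Folliculin, encoded by Flcn, acts with its partners Fnip1 and Fnip2 on RagC and RagD. V-ATPase genes, Flcn and Rragd are known in other cells as targets of the MiT/TFE family of transcription factors, which recognise CACGTG-type sites.

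Levels are given in FPKM, the fragments mapped to a gene per unit of its length and of library size, and so they can be set beside each other between genes of 1 library. Each difference subtracts the control value from the Tsc1cKO value after both were turned into log2(FPKM + 1), a form that makes the change of low genes look smaller. With 1 library per group there is no replicate check and no test, read depth is unknown, and "higher" and "lower" describe these 2 libraries. The values cover the whole nerve, in which fewer cells of a type and less RNA per cell cannot be told apart. Tsc1 was at 2.28 FPKM in Tsc1cKO and 3.76 FPKM in control, lower in the library labelled Tsc1cKO. The median difference of the 12409 genes that reached 1 FPKM in at least 1 library was 0.20. Dividing Tsc1cKO by 1.18, the median ratio over 7844 genes that reached 5 FPKM on both sides, removed a shift of 0.24, and differences after this step are called centred.

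Of the 33 members, 25 reached 1 FPKM in at least 1 library, and 23 of these were higher in Tsc1cKO, against 67% of all measured genes, and 2 were lower, against 33%. When centred, 21 of the 25 were higher, against 49.4% of all, and 4 were lower, against 50.6%. At least 2-fold higher were 6 members, against 5.03% of all measured genes, and none was at least 2-fold lower, against 3.06%. After centring 4 members were at least 2-fold higher, against 2.86%, and 0 at least 2-fold lower, against 4.65%. All of these counts of higher members include Atp6v0d2, which passed the filter of 1 FPKM only through Tsc1cKO and so had to be higher. Median differences were 0.90 in V1 (0.66 centred), 0.44 in V0 (0.22 centred), 0.42 in the accessory genes (0.19 centred) and 0.87 in the Rag group (0.66 centred). The Rag group was not uniform: its 3 measured Rag GTPase genes had a median of 0.39 (0.16 centred), below that of V0, and Flcn, Fnip1 and Fnip2 had a median of 0.88 (0.68 centred). Ranges of the groups overlapped, from −0.07 to 1.98 in V1 and from −0.11 to 1.29 in V0.

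**Figure D1:**
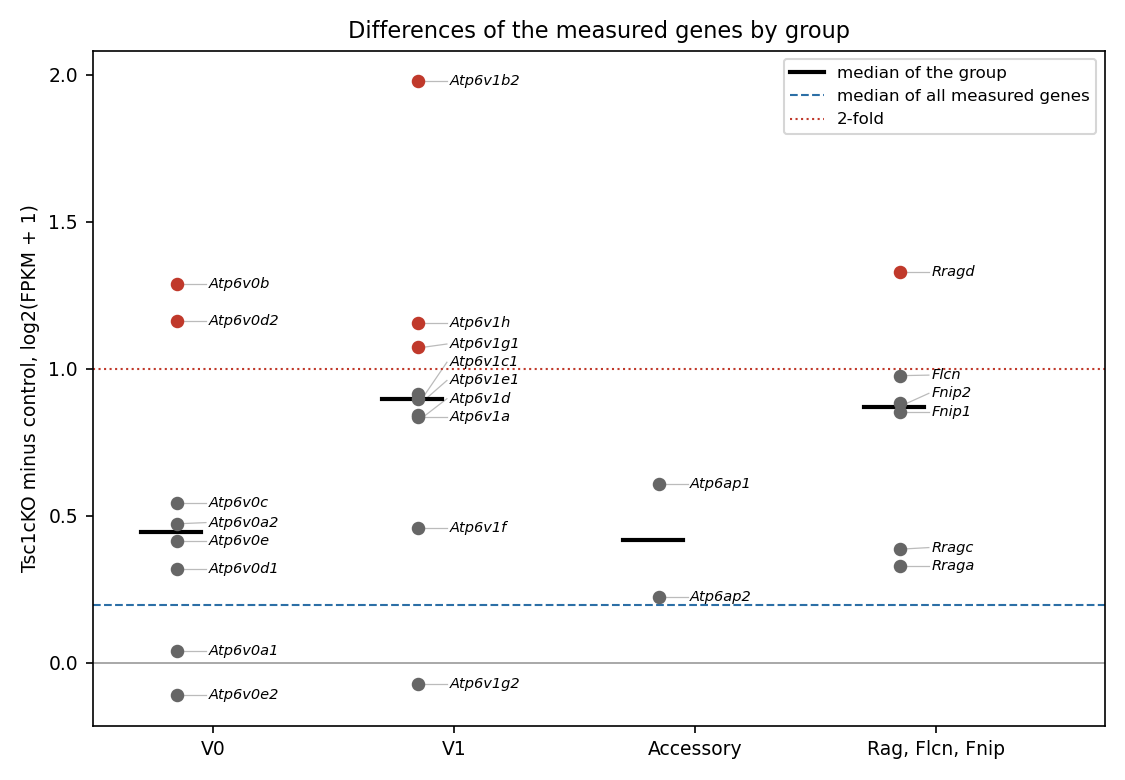
Each point is a measured gene, placed by its difference between Tsc1cKO and control on the log2(FPKM + 1) scale (vertical axis) in 1 of 4 groups (horizontal axis); bars are group medians, the dashed line is the median of all measured genes (0.20) and the dotted line is 2-fold. Most V1 genes lie between 0.84 and 1.16 with Atp6v1b2 above them at 1.98, whereas most V0 genes lie between 0.04 and 0.54.

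Promoter windows, 250 bases before to 50 bases after the annotated start, were found for 25 of the 33 members in RefSeq for build GRCm38.p6, which is not the build of the expression tables. They are shown because most members were higher together. Atp6v0a2, Atp6v0d2, Atp6v1b2, Atp6v1c1, Atp6v1g1, Atp6v1h, Atp6ap1l and Atp6v0c-ps2 had no window in the table. The letters CACGTG, which read the same on both strands, stood in the windows of 7 of the 25 members (28%), against 8.09% of all 27025 symbols in the table. Among measured genes only, it stood in 6 of 19 members (31.6%), against 11.8% of 8832 symbols. The longer TCACGTGA, which contains CACGTG and also reads the same on both strands, stood in 3 (12%), against 1.12% of all symbols, and all 3 were measured (15.8% of 19), against 2.31% of measured symbols. TCACATGA or its reverse complement TCATGTGA stood in 1, Atp6v0c (4%), against 1.15% of all symbols. Member windows had a median GC content of 59.2% and all windows 52.7%, and this was not taken into account. Among the measured members with a window, the 6 with CACGTG had a median difference of 0.63 and the 13 without it 0.54. Absent from this split, for want of a window, were Atp6v1b2, Atp6v0d2, Atp6v1h and Atp6v1g1, all past 2-fold as deposited. A match is a description of the letters, and binding was not measured. The 2 members with a window and the largest differences are shown whole, Atp6v0b with 2 copies of CACGTG and Rragd with none of these motifs, followed by stretches around the first match in 5 other genes. Capitals mark the matches, and every sequence runs 5′ to 3′ on the strand of its gene.
Atp6v0b, chr4:117887280-117887579, minus strand: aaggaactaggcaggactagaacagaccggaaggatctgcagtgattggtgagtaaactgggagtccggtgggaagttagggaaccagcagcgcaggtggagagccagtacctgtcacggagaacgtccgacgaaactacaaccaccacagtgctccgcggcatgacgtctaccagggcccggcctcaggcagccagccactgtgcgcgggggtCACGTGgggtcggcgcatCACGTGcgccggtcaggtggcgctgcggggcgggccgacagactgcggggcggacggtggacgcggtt
Rragd, chr4:32982748-32983047, plus strand: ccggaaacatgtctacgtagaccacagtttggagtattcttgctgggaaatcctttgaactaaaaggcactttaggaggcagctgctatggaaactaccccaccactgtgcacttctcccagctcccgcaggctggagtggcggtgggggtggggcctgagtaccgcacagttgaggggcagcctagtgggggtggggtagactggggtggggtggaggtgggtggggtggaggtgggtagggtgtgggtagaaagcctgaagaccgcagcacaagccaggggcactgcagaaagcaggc
Atp6v0d1, chr8:105566042-105566087, minus strand: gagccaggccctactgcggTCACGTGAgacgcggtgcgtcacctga
Atp6v0e, chr17:26676379-26676424, plus strand: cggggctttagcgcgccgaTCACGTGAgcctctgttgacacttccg
Atp6v1a, chr16:44139365-44139410, minus strand: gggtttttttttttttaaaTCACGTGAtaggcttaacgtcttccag
Rragc, chr4:123917301-123917346, plus strand: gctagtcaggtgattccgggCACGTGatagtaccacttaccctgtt
Fnip1, chr11:54438084-54438129, plus strand: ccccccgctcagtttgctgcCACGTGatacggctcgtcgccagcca
Counted from the first letter of CACGTG itself, also where the longer match is in capitals, it began 3 bases before the annotated start in Atp6v0d1, and the first copy began 36 bases before it in Atp6v0b. In Fnip1 it began 75 bases before the start, in Rragc 112 and in Atp6v1a 131, and in Atp6v0e at base 4 of the transcript. Rragb, which was below 1 FPKM in both libraries and so not counted as measured, held 3 copies of CACGTG. A link between the letters and the differences was not tested.

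In the V1 sector, 8 of 9 measured genes were higher in Tsc1cKO as deposited and when centred, against 67% and 49.4% of all measured genes. By at least 1.5-fold, 7 were higher on both scales, against 17.8% and 9.07%. Atp6v1b2 encodes the widely expressed form of subunit B, which shares the nucleotide-binding sites with subunit A. It was at 132 FPKM in Tsc1cKO and 32.8 FPKM in control, 4.03-fold higher, with a difference of 1.98 (1.74 centred). Only 0.814% of measured genes had a larger difference. The gene lies on chromosome 8, 71612634 to 71637616 (mm9), and its span overlaps that of Slc18a1, which was listed at 0.0074 FPKM in Tsc1cKO and 0 in control. By level it ranked 575 of all genes in Tsc1cKO and 2106 in control.

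Its partner Atp6v1a, which encodes the catalytic subunit A, was at 36.9 FPKM in Tsc1cKO and 20.2 FPKM in control, 1.82-fold higher. Both subunits are built into the pump in equal number, yet their transcripts did not keep 1 ratio. Atp6v1b2 stood at 3.58 times the level of Atp6v1a in Tsc1cKO and at 1.62 times in control, a comparison free of library scaling. Among the V1 genes Atp6v1b2 thus stood apart, the next highest difference being 1.16.

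Of the stalk and regulatory subunits, those encoded by Atp6v1h and Atp6v1g1 exceeded 2-fold as deposited, and neither did when centred. Atp6v1h encodes subunit H, which links the sectors and blocks ATP splitting when V1 is free (chromosome 1, 5073253 to 5152630). It was at 40.4 FPKM in Tsc1cKO and 17.6 FPKM in control, 2.30-fold higher, with a difference of 1.16 (0.93 centred). Atp6v1g1 encodes the common form of stalk subunit G (chromosome 4, 63205798 to 63211735) and was at 246 FPKM in Tsc1cKO and 116 FPKM in control, 2.11-fold higher, with a difference of 1.07 (0.84 centred). Atp6v1e1, whose product pairs with subunit G in the outer stalks, was at 171 FPKM in Tsc1cKO and 91.6 FPKM in control. The pair held a near-constant ratio, Atp6v1g1 standing at 1.43 times Atp6v1e1 in Tsc1cKO and 1.27 times in control. Atp6v1c1, encoding subunit C, which controls assembly of V1 with V0, was at 39.4 FPKM in Tsc1cKO and 20.4 FPKM in control. Atp6v1d, encoding the central rotor stalk D, was at 59.9 FPKM in Tsc1cKO and 33.0 FPKM in control. Differences of Atp6v1a, Atp6v1c1, Atp6v1d and Atp6v1e1 lay between 0.84 and 0.91, just short of 2-fold.

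The V1 members at the low end were subunit F and a paralog of subunit G. Atp6v1f, encoding rotor subunit F, was at 155 FPKM in Tsc1cKO and 112 FPKM in control, a difference of 0.46 (0.23 centred). Atp6v1g2, the form of subunit G typical of neurons, was at 4.36 FPKM in Tsc1cKO and 4.64 FPKM in control, the 1 measured V1 gene that was lower. Atp6v1b1, Atp6v1c2, Atp6v1e2 and Atp6v1g3, forms known from kidney, other epithelia or testis, did not reach 1 FPKM. Atp6v1e2 and Atp6v1g3 were listed at 0 in both libraries, and Atp6v1b1 and Atp6v1c2 did not exceed 0.166 FPKM in either. Summed over all V1 genes, FPKM came to 885 in Tsc1cKO and 449 in control, 1.97-fold higher as deposited and 1.67-fold centred.

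**Figure D2:**
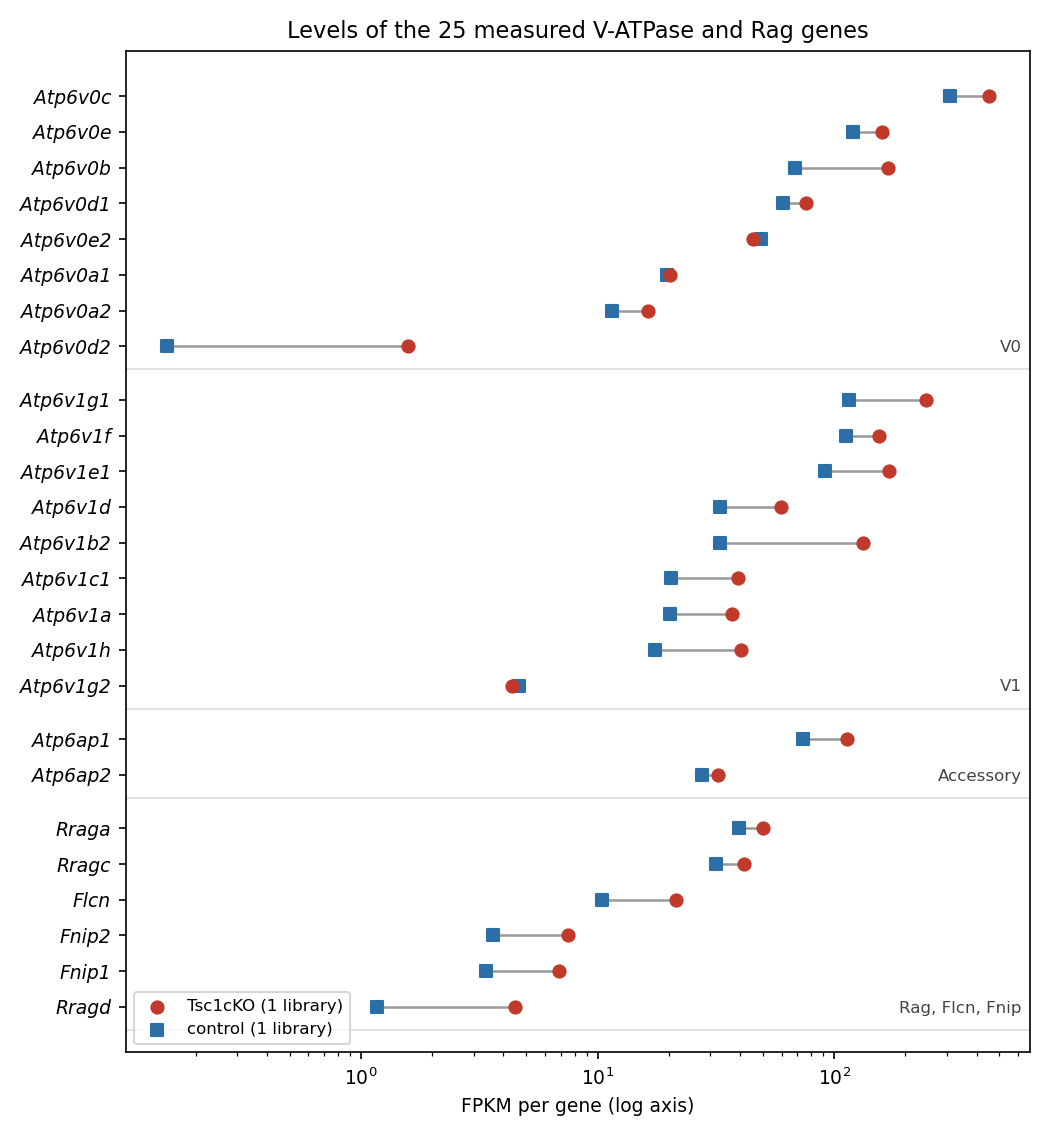
FPKM of the 25 measured genes (rows, in 4 groups) in Tsc1cKO (red circles) and control (blue squares), 1 library each, on a log axis. The red circle lies right of the blue square in 23 rows; in Atp6v0e2 and Atp6v1g2 it lies left of it.

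In the V0 sector, 7 of 8 measured genes were higher as deposited, against 67% of all measured genes, and 6 when centred, against 49.4%. By 1.5-fold or more, 2 were higher on both scales, against 17.8% and 9.07%. These 2 were Atp6v0b and Atp6v0d2, and the latter passed the filter of 1 FPKM only through Tsc1cKO. Atp6v0b encodes the proteolipid c″ of the rotor ring (chromosome 4, 117556934 to 117559934). It was at 169 FPKM in Tsc1cKO and 68.6 FPKM in control, 2.46-fold higher, with a difference of 1.29 (1.05 centred). Atp6v0c, encoding the proteolipid c that makes up most of the ring, had the highest level of any member at 450.2 FPKM in Tsc1cKO and 309 FPKM in control, 1.46-fold higher. Within the ring, Atp6v0b thus stood at 0.375 of the level of Atp6v0c in Tsc1cKO and 0.222 in control. The Atp6v0c value is uncertain to the extent that Atp6v0c-ps2 covers the same span: 88.0% of the 50-base runs of the pseudogene transcript also occur in Atp6v0c transcripts of GENCODE M21. Atp6v0c-ps2 itself was listed at 0.0782 FPKM in Tsc1cKO and 0.0046 FPKM in control.

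The other V0 genes differed less. Atp6v0d1, encoding the usual form of subunit d that couples the ring to the V1 stalk, was at 76.4 FPKM in Tsc1cKO and 61.1 FPKM in control. Atp6v0e, encoding the small subunit e, was at 160.1 FPKM in Tsc1cKO and 119.9 FPKM in control, and its paralog Atp6v0e2 was at 45.6 FPKM in Tsc1cKO and 49.3 FPKM in control. Atp6v0e2 was lower as deposited and when centred, at −0.11 and −0.34. Atp6v0d2, a form of subunit d known from osteoclasts and macrophages, was at 1.58 FPKM in Tsc1cKO and 0.151 FPKM in control. It passed the filter of 1 FPKM only through Tsc1cKO, so it had to differ, and its difference of 1.16 fell to 0.35 with a pseudocount of 5. Summed FPKM of the V0 genes was 940.1 in Tsc1cKO and 639 in control, 1.47-fold higher as deposited and 1.25-fold centred.

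Subunit a exists in several forms that direct the pump to different membranes. Atp6v0a1 was at 20.2 FPKM in Tsc1cKO and 19.7 FPKM in control, with differences of 0.04 as deposited and −0.18 after centring. Atp6v0a2, a form of the Golgi and endosomes, was at 16.4 FPKM in Tsc1cKO and 11.5 FPKM in control. The third form, a3, stands under the symbol Tcirg1 and so is outside the rule, but it is needed to see the subunit whole. Tcirg1, the form of lysosomes and of the osteoclast membrane, was at 22.2 FPKM in Tsc1cKO and 13.3 FPKM in control, 1.66-fold higher. Of the summed FPKM of the a forms, Tcirg1 held 37.3% in Tsc1cKO and 29.8% in control, Atp6v0a1 34.1% and 44.0%, and Atp6v0a2 27.6% and 25.8%. Tcirg1 was the most abundant a form in Tsc1cKO and Atp6v0a1 in control. Atp6v0a4, the form of kidney intercalated cells, was at 0.540 FPKM in Tsc1cKO and 0.175 FPKM in control and was not counted as measured.

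Among the accessory genes, Atp6ap1, encoding the protein Ac45 that guides assembly and sorting of V0, was at 113 FPKM in Tsc1cKO and 74.1 FPKM in control, a difference of 0.61 (0.37 centred). Atp6ap2, encoding the (pro)renin receptor, which also serves in assembly of the pump, was at 32.4 FPKM in Tsc1cKO and 27.6 FPKM in control. Its difference of 0.23 was close to that of all genes and was −0.0029 when centred. Atp6ap1l was listed at 0 in Tsc1cKO and 0.0272 FPKM in control.

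In the Rag group, all 6 measured genes were higher in Tsc1cKO as deposited, against 67% of all measured genes, and when centred, against 49.4%. By at least 1.5-fold, 4 were higher on both scales, against 17.8% and 9.07%. The GTPases with the highest levels differed little. Rraga, encoding RagA, was at 50.2 FPKM in Tsc1cKO and 39.7 FPKM in control, and Rragc, encoding RagC, at 41.7 FPKM in Tsc1cKO and 31.6 FPKM in control. Their differences of 0.33 and 0.39 were 0.10 and 0.16 when centred, and Rragc stood at 0.830 of the level of Rraga in Tsc1cKO and 0.796 in control.

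Rragd, encoding RagD, was the member of the Rag group that exceeded 2-fold (chromosome 4, 33069972 to 33109155). It was at 4.46 FPKM in Tsc1cKO and 1.17 FPKM in control, 3.80-fold higher by the ratio of FPKM, with a difference of 1.33 (1.14 centred). With a pseudocount of 5 this difference was 0.62, below 2-fold, and with one of 0.1 it was 1.84, and the gene did not reach a filter of 5 FPKM. Its share of the summed FPKM of Rragc and Rragd was 9.67% in Tsc1cKO and 3.58% in control, so Rragc remained the more abundant partner gene in both libraries. Rragb, encoding RagB, lay just under the filter at 0.592 FPKM in Tsc1cKO and 0.988 FPKM in control. With a difference of −0.32 (−0.40 centred) it went the other way from the measured genes of this group, all of which were higher. No exact run of 50 bases was shared between GENCODE M21 transcripts of Rraga and Rragb, of Rragc and Rragd or of any other pair of paralogs compared within a subunit.

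Flcn and its partners were higher by nearly the same factor. Flcn (chromosome 11, 59605252 to 59623275) was at 21.5 FPKM in Tsc1cKO and 10.4 FPKM in control, 2.06-fold higher by the ratio of FPKM. Fnip1 was at 6.89 FPKM in Tsc1cKO and 3.36 FPKM in control, a ratio of 2.05, and Fnip2 at 7.49 FPKM in Tsc1cKO and 3.60 FPKM in control, a ratio of 2.08. On the log2(FPKM + 1) scale the 3 differences were 0.98, 0.85 and 0.88, below 2-fold, and with a pseudocount of 0.1 all 3 exceeded it. When centred the ratios were 1.75, 1.74 and 1.76. Fnip1 held 47.9% of the summed FPKM of both Fnip genes in Tsc1cKO and 48.3% in control. The span of Fnip2 overlaps that of LOC100233207, which was listed at 0.325 FPKM in Tsc1cKO and 0 in control.

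**Figure D3:**
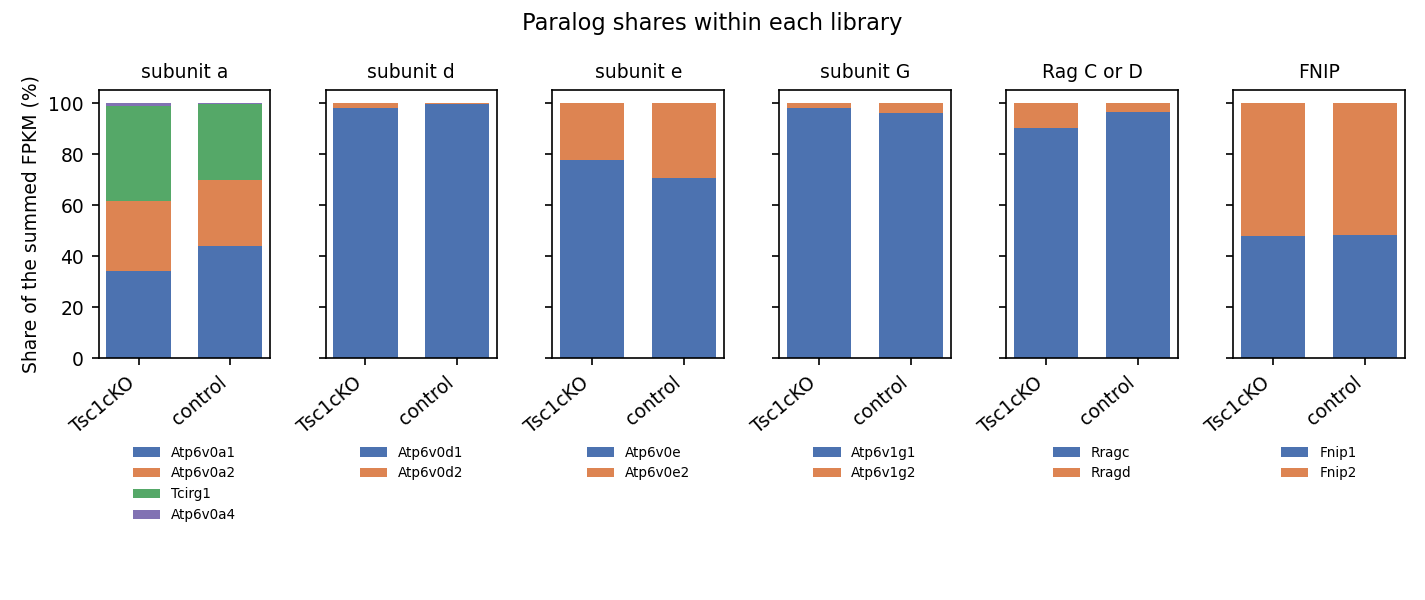
Share of the summed FPKM (vertical axis, percent) held by each paralog of a subunit in Tsc1cKO (left bar) and control (right bar), 1 library each. The Tcirg1 share of subunit a is 37.3% in Tsc1cKO and 29.8% in control, the Rragd share is 9.67% in Tsc1cKO and 3.58% in control, and the Fnip shares are nearly the same in both.

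The genes that work beside the pump and the Rag GTPases were read list by list. All 5 Ragulator genes were higher as deposited, against 67% of all measured genes, and when centred, against 49.4%. As deposited they were higher by 0.56 to 0.79, with a median of 0.64 (0.41 centred). None was past 2-fold, against 5.03% of all measured genes. Lamtor4 was at 78.1 FPKM in Tsc1cKO and 44.7 FPKM in control, and Lamtor1, which anchors the complex in the lysosomal membrane, was at 134 FPKM in Tsc1cKO and 90.5 FPKM in control, with a span that overlaps Tomt. GATOR and KICSTOR are complexes that relay amino acid levels to RagA and RagB. Of their 12 genes, 9 were higher as deposited, against 67% of all measured genes, and 4 after centring, against 49.4%. The median was 0.09 (−0.12 centred). Sec13 was at 128 FPKM in Tsc1cKO and 99.7 FPKM in control, and Seh1l was at 16.8 FPKM in Tsc1cKO and 13.0 FPKM in control. Of 7 genes for amino acid sensors, 4 were higher as deposited, against 67%, and 3 after centring, against 49.4%, and the median was 0.07 (−0.16 centred). Sesn2, encoding a leucine sensor, was at 3.52 FPKM in Tsc1cKO and 2.13 FPKM in control, and Castor1, encoding an arginine sensor, at 4.68 FPKM in Tsc1cKO and 7.61 FPKM in control.

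Other genes of pump assembly and regulation had a median close to that of all measured genes. Of 11 such genes, Tcirg1 included, 8 were higher as deposited, against 67% of all measured genes, and 6 after centring, against 49.4%. Their median was 0.20 (0.0027 centred). Ccdc115, whose product assists V0 assembly in the endoplasmic reticulum, was at 17.7 FPKM in Tsc1cKO and 8.97 FPKM in control, a difference of 0.90 (0.68 centred), as large as the V1 median. Tmem199, which acts with it, was at 14.4 FPKM in Tsc1cKO and 9.99 FPKM in control. Tm9sf4, which had the highest mean level in this list, was lower, at 16.5 FPKM in Tsc1cKO and 20.6 FPKM in control. Of the 10 genes of mTORC1, the TSC complex and Rheb, 4 were higher as deposited, against 67%, and 2 after centring, against 49.4%. The median was −0.19 (−0.41 centred). Rhebl1, a relative of Rheb, was at 3.68 FPKM in Tsc1cKO and 1.46 FPKM in control. Rheb itself, named after its value was seen, was at 37.7 FPKM in Tsc1cKO and 43.4 FPKM in control.

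Most lysosomal genes outside the pump were higher too. Of 26 hydrolase genes 23 were higher as deposited, against 67% of all measured genes, and 20 when centred, against 49.4%. Past 2-fold were 5 of them, against 5.03%, and the median was 0.71 (0.48 centred). Of 15 genes for lysosomal membrane proteins 14 were higher as deposited, against 67%, and 13 when centred, against 49.4%. Their median was 0.53 (0.32 centred). Against 5.03% of all measured genes, 2 of them passed 2-fold. These were Cd63, a tetraspanin gene, at 1667 FPKM in Tsc1cKO and 309 FPKM in control, and Tpcn2, a gene for an endolysosomal cation channel, at 9.11 FPKM in Tsc1cKO and 3.28 FPKM in control. Lamp1, encoding a main glycoprotein of that membrane, was at 489 FPKM in Tsc1cKO and 449 FPKM in control, a difference of 0.12 that became −0.11 when centred. Mitf, a MiT/TFE factor, was at 4.38 FPKM in Tsc1cKO and 5.72 FPKM in control, while Tfeb, Tfe3 and Tfec were not analysed here. The mitochondrial ATP synthase, a related rotary enzyme, was chosen as a comparison after the V-ATPase values were seen. It had 15 of 16 genes higher as deposited, against 67% of all measured genes, and 14 when centred, against 49.4%. No gene of the synthase was 2-fold higher, against 5.03%, or 2-fold lower, against 3.06%. The synthase had a median of 0.50 (0.26 centred). Its median thus lay above those of V0 and the accessory genes and below those of V1 and of Flcn, Fnip1 and Fnip2, and no test of these differences was possible.

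**Figure D4:**
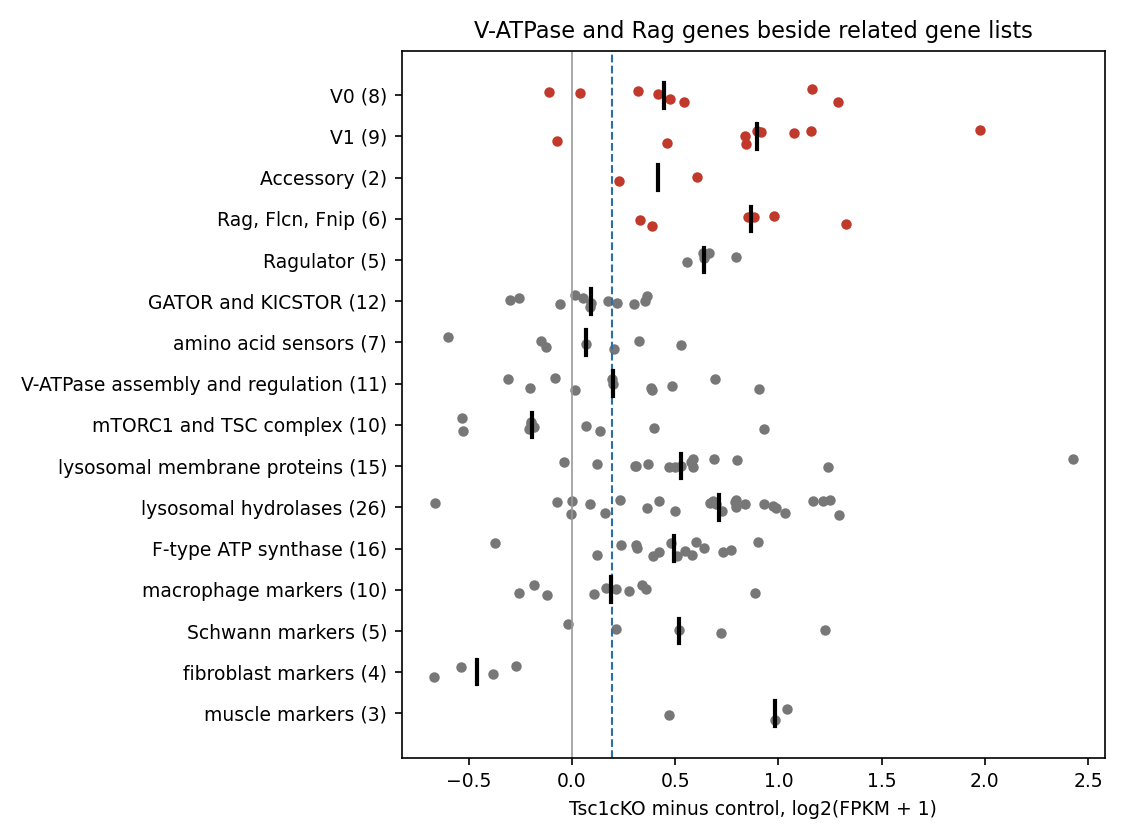
Each point is a measured gene and each row a group or list, with the number of genes in brackets; the horizontal axis is the log2(FPKM + 1) difference, Tsc1cKO minus control, black bars are medians and the dashed line is the median of all measured genes (0.20). V1 and the Rag group have medians of 0.90 and 0.87, against 0.44 for V0 and 0.50 for the mitochondrial ATP synthase.

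Markers of cell types that could carry these transcripts were read in the same libraries. Macrophage markers summed to 165 FPKM in Tsc1cKO and 162 FPKM in control, with ratios from 0.826 to 1.99. Of 10, 7 were higher as deposited, against 67% of all measured genes, and 5 when centred, against 49.4%. Both counts include Ptprc, at 1.56 FPKM in Tsc1cKO and 0.993 FPKM in control. It passed the filter only through Tsc1cKO, so it had to be higher as deposited. Lyz2, the highest of the macrophage markers, was at 66.1 FPKM in Tsc1cKO and 75.2 FPKM in control. The list as a whole, with a median of 0.19, stood close to the median of all measured genes. Osteoclast markers summed to 52.9 FPKM in Tsc1cKO and 60.9 FPKM in control. The 2 measured were both lower when centred, against 50.6% of all measured genes. Ctsk was at 43.7 FPKM in Tsc1cKO and 51.8 FPKM in control and Acp5 at 8.74 FPKM in Tsc1cKO and 8.67 FPKM in control. Dcstamp was listed at 0 in both libraries and Calcr at 0.0069 FPKM in Tsc1cKO and 0 in control. Of the melanocyte markers, Mlana and Slc45a2 were listed at 0 in both libraries, and Tyr and Oca2 stayed below 1 FPKM. Dct was at 4.98 FPKM in Tsc1cKO and 0.818 FPKM in control, and passed the filter only through Tsc1cKO, so it had to be higher. Kit was at 1.74 FPKM in Tsc1cKO and 1.21 FPKM in control. Schwann markers were higher in 4 of 5 cases as deposited, against 67% of all measured genes, and 3 when centred, against 49.4%. They summed to 1466 FPKM in Tsc1cKO and 1017 FPKM in control, with the lineage factor gene Sox10 at 246 FPKM in Tsc1cKO and 212 FPKM in control. Fibroblast and endothelial markers, 4 each, were all lower as deposited and when centred, against 33% and 50.6% of all measured genes. They summed to 2862 and 50.4 FPKM in Tsc1cKO and 4286 and 67.6 FPKM in control. The 3 measured muscle markers were higher as deposited and when centred, against 67% and 49.4% of all measured genes. Acta1 was at 218 FPKM in Tsc1cKO and 109.6 FPKM in control and Ckm at 102 FPKM in Tsc1cKO and 49.2 FPKM in control. Myog, at 1.15 FPKM in Tsc1cKO and 0.552 FPKM in control, passed the filter only through Tsc1cKO, so it had to be higher as deposited. Of the epithelial markers Epcam, Krt8 and Krt18 stayed at or below 0.227 FPKM, while Cdh1, which Schwann cells also express, was at 92.3 FPKM in Tsc1cKO and 50.3 FPKM in control, and no neuronal marker reached 1 FPKM. The part of these cell types in the V-ATPase and Rag values was not tested.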

How the data were processed

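Sciatic nerve RNA was made into libraries with Illumina's TruSeq chemistry, per the labels' protocols, 1 from Tsc1cKO and 1 from control nerve, and the labelled genotype set the groups. The authors deposited 1 FPKM value per gene entry and library, per the file headers. The submitters' processing notes name build mm9 and the tools CASAVA, TopHat and Cufflinks, with no versions. For annotation, strand and read depth the sources used here give nothing.

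Each table held 22532 entries. FPKM were summed per symbol, and 3 symbols with a status other than OK were left out (22093 used). No member stood on more than 1 entry. A gene that reached 1 FPKM in either library was called measured (12409). Differences were log2(FPKM + 1) in Tsc1cKO minus control, and 2-fold was a difference of 1. No test was possible. Centring divided Tsc1cKO by the median ratio. The calculation was tested on simulated data with Python 3.11.15, pandas 2.3.3 and numpy 2.4.6. Other settings were pseudocounts of 0.1 and 5, no filter or 5 FPKM, 3 scalings, a 1.5-fold threshold and changed group membership.

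The members, the lists (from general knowledge) and the settings were chosen with earlier results of these data known. All members were accounted for. From each list, members with the largest difference or highest level, or at 0, were named, with a few not reported here. Coordinates are as the tables give them. Older symbols in the tables were matched through RefSeq synonyms, so Lamtor1, Lamtor4, Castor1 and Dcstamp stand there under other names.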

Additional observations from a re-analysis of the deposited data

How the results depend on the processing

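Of the 25 measured members, 21 were above 0 under every setting that gave them a value and 2, Atp6v0e2 and Atp6v1g2, were below 0. Atp6v0a1 (0.04 as deposited) turned to −0.18 with median ratio scaling, −0.14 with upper quartile scaling and −0.17 with trimmed mean scaling, and Atp6ap2 (0.23) to −0.0029 with median ratio scaling. The 3 scalings, in this order, gave V1 medians of 0.66, 0.71 and 0.68, Rag group medians of 0.66, 0.70 and 0.68, V0 medians of 0.22, 0.26 and 0.23 and accessory medians of 0.19, 0.23 and 0.20. The median of all measured genes was −0.0066, 0.034 and 0.0057 under them, and 355, 390 and 363 genes were at least 2-fold higher, with 577 lower under median ratio scaling. Under each of the 3 scalings 1 V1 gene, Atp6v1b2, was at least 2-fold higher, against 3 as deposited. Scaling divides all Tsc1cKO values by 1 factor, and why the libraries differ in this shift was not tested.

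With a pseudocount of 0.1 the Rag group had 4 genes at least 2-fold higher and a median of 1.02, and with a pseudocount of 5 it had 0 and 0.52. With a pseudocount of 5, 1 V0 gene, 283 genes in all and 221 lower genes passed 2-fold. A filter at 5 FPKM left 1 V0 gene and 0 genes of the Rag group past 2-fold, because Atp6v0d2 and Rragd fell under it. Without a filter the accessory median was 0.23 and that of all genes 0. Without tissue-restricted paralogs 1 V0 gene, Atp6v0b, was past 2-fold. A threshold of 1.5-fold gave 7 V1, 1 accessory and 4 Rag group genes and 2211 genes higher and 934 lower in all. Together with median ratio scaling, a setting chosen after seeing the data, it gave 7 V1 and 4 Rag group genes and 1125 genes higher and 1450 lower in all. No library could be left out and no paired analysis was possible because each group had 1 library. Read depth is unknown, so the precision of the low members, Rragd and Atp6v0d2 above all, cannot be stated.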
